A study of Penicillium oxalicum with 9 samples.

Results

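Messenger RNA of a Penicillium oxalicum strain with crzA deleted was set against that of its wild type, strain 114-2, to find which transcripts were lost and which were gained without crzA. Both groups were chosen by strain label and held 3 libraries each, 6 of the 9 libraries of the series. The other 3 came from a recovery strain with crzA put back, and they entered no test here. All strains were grown as mycelium, the thread-like growth form of the fungus. It was pre-cultured for 24 h at 30 °C, washed, and harvested 18 h after transfer to a new medium. The medium label names 2% starch as the carbon source and the source label names glucose, and this conflict was not settled. The labels do not say how crzA was deleted, whether the deletion strain is 1 clone, or whether replicates were separate cultures. What the p-values measure is then the spread from library to library, and that spread may be technical.

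CrzA, related to Crz1 of yeast, is a transcription factor with zinc fingers that many filamentous fungi carry. When calcium in the cell rises, the phosphatase calcineurin removes phosphate groups from it, it moves into the nucleus, and it switches on genes for calcium transport, cell wall building and stress tolerance. Penicillium oxalicum is grown for the enzymes it secretes to break down cellulose and starch, and the series title asks what CrzA does in the development of the fungus and in the expression of its cellulose-degrading genes. The file lists genes by locus number, from PDE_00001 to PDE_10013, and pairs none of them with a gene name. The reference table is of another strain and held 0 of these numbers. The level of crzA itself, which would check the strain labels, and markers of mycelium were therefore not analysed here. Genes are described by their level and by their locus number, with no role given to any of them.

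Levels were deposited as FPKM (fragments counted per unit of gene length, scaled by the library total). The test took in 8972 of the 9860 genes of the file, those that reached 1 FPKM in 3 libraries or more out of the 6. Among the other 888 genes, 59 were listed at 0 in all 6 libraries, 520 stayed under 1 FPKM, and 309 reached 1 FPKM in 1 or 2 libraries. At the edge of this filter, 10 genes had a third-highest value of 1 FPKM and were tested, and 1 gene had a third-highest value of 0.99 FPKM and was not. Per library, 8798 to 8961 genes stood at 1 FPKM or above among these 6, and the median gene had 23.5 to 26.1 FPKM.

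Replicates within a strain were not equally close. Deletion and wild-type libraries were parted by the first principal component (71.6% of variance), on which deletion libraries had scores of 52.9, 48.0 and 51.6 and wild-type libraries scores of -59.4, -32.2 and -60.8, in the order of replicates 1, 2 and 3. Wild-type replicate 2 thus lay nearest to the deletion libraries. The second component held 15.0% and set deletion replicate 2, at -40.9, apart from deletion replicates 1 and 3, at 25.2 and 19.5. Wild-type replicate 2, at -22.0, lay on the same side, apart from wild-type replicates 1 and 3, at 12.2 and 6.0. Log2 values of deletion replicates 1 and 3 differed with an SD of 0.350, against 0.760 and 0.726 for pairs with replicate 2. Those of wild-type replicates 1 and 3 differed with an SD of 0.242, against 0.715 and 0.672 for pairs with replicate 2. Counts are therefore also given without replicate 2 of both strains, a choice made with earlier results of these data known.

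The deletion strain had 760 genes higher than the wild type, 8.47% of those tested, and 677 genes lower, 7.55% (limma on log2(FPKM + 1), Benjamini-Hochberg adjusted p under 0.05). Rises of 2-fold or more numbered 521 (5.81%) and falls of that size 585 (6.52%). Rises of 8-fold or more numbered 58 (0.646%) and falls of that size 203 (2.26%). Falls were thus fewer than rises among all calls and more frequent among large changes. The first order turned when levels were rescaled to library totals without the most abundant gene, with 657 higher and 700 lower, with a block for replicate number, with 640 higher and 696 lower, and in most fits that left out a library, given below. The libraries are bulk RNA, in which fewer cells of a kind and less RNA per cell cannot be told apart. The median log2 change was 1.26 over the genes called higher and -1.93 over those called lower, beside 0.06 over all genes tested. Because 1 was added to each FPKM before the logarithm, fold changes of genes with low levels are understated. An unadjusted p under 0.05 was found for 2773 genes.

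The number of calls depended on the libraries in the fit. Without replicate 2 of both strains, 2399 genes were higher (26.7%) and 2072 lower (23.1%). Those libraries were chosen for standing apart, so leaving them out lowers the spread by construction. Among genes at 10 to 100 FPKM in the wild type, the median SE was then 0.16, against 0.21 with all 6 libraries. With only deletion replicate 2 left out, 1502 were higher and 1081 lower, and with only wild-type replicate 2 left out, 936 and 1077. Leaving out any other library lowered the counts, to 374 higher and 470 lower without deletion replicate 1 and 363 and 446 without deletion replicate 3. Without wild-type replicate 1 they were 311 and 428, and without wild-type replicate 3 they were 300 and 405. The count of 8-fold falls moved less, with 184 to 243 when 1 library was left out and 238 without replicate 2 of both strains. A fit that shared its spread with the recovery libraries called 1363 higher (15.2%) and 1000 lower (11.1%). A fit that weighted each library by its spread called 2580 higher (28.8%) and 2424 lower (27.0%). Among the 677 genes called lower, wild-type replicate 2 had the lowest of the 3 wild-type values in 447 (66.0%) and wild-type replicate 3 in 34 (5.02%). Among the 760 called higher, wild-type replicate 2 had the highest wild-type value in 437 (57.5%). Wild-type replicate 2 therefore stood on the side of the deletion libraries in most called genes.

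In all 1437 called genes the 3 deletion values lay outside the range of the 3 wild-type values, which the test favours by construction. Over all genes tested, the deletion values lay wholly above those of the wild type in 21.6% and wholly below in 14.3%. Genes called higher together held 17.6% ± 0.743 of summed FPKM in the deletion strain, against 5.38% ± 0.613 in wild-type libraries (SD, n = 3 each). Genes called lower held 2.49% ± 0.131 in the deletion strain and 23.7% ± 2.21 in the wild type. These genes were chosen by their change, so the shares are a description. In the recovery strain, whose libraries chose none of them, the higher genes held 5.0% ± 0.0585 and the lower genes 24.8% ± 0.206.

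A single transcript, PDE_09832, made up much of the share lost. It was the most abundant one in the wild type and is named here for that level, after its values were seen. It had 4749, 4362 and 6301 FPKM in the deletion libraries, against 98535, 91788 and 92702 FPKM in the wild-type libraries. All wild-type libraries, replicate 2 included, were close together and far above all deletion libraries. The log2 change was -4.22 ± 0.26 (SE, adjusted p = 6.72e-05, limma), and -3.09 after quantile normalization (adjusted p = 8.76e-05, limma). Of summed FPKM it held 0.486%, 0.448% and 0.607% in the deletion libraries and 9.54%, 8.65% and 8.88% in the wild-type libraries. In the recovery libraries it had 111988, 109347 and 110168 FPKM. The other 676 lower genes held 1.98% ± 0.0581 of summed FPKM in the deletion strain, 14.3% ± 0.109 in the recovery strain and 14.6% ± 1.93 in wild-type libraries (SD, n = 3 each).

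Some transcripts passed from 1 FPKM or more to below 1 FPKM, or the reverse. A transcript was counted as lost when it was called lower, was under 1 FPKM in all 3 deletion libraries and stood at 1 FPKM or more in all 3 wild-type libraries. There were 60 lost transcripts (0.669%) and, by the mirrored rule, 30 gained ones (0.334%). Before the test, 74 genes met the level limits for loss and 39 those for gain. Most lost transcripts were weakly expressed in the wild type, with a median of 4.52 FPKM, and 18 of the 60 had a wild-type mean of at least 10 FPKM. Gained transcripts reached a median of 2.96 FPKM in the deletion strain, and 2 of the 30 exceeded 10 FPKM there. Some of both kinds lay close to the limit. The lowest wild-type mean of a lost transcript was 1.05 FPKM, and the smallest log2 change was -0.72. For gained transcripts the lowest deletion mean was 1.31 FPKM and the smallest log2 change 0.80. Of the lost transcripts 2 were listed at 0 in all 3 deletion libraries. In the recovery strain 54 of the 60 lost transcripts were at 1 FPKM or above in all 3 libraries, and 22 of the 30 gained ones were under 1 FPKM in all 3. Of all 8972 tested genes, 170 had a recovery mean under 1 FPKM. That background is of means, not of all 3 libraries. By it, presence in the recovery strain was usual and does not set the lost transcripts apart. Levels under 1 FPKM, as in most gained transcripts, were rare there, but the gained ones were chosen for such levels in the wild type. Leaving out 1 library moved the lost count to between 41 and 70. The gained count fell to 15 and 19 without deletion replicates 1 and 3 and to 16 without either wild-type replicate 1 or wild-type replicate 3, and it was 58 without wild-type replicate 2. Without replicate 2 of both strains, 93 were lost and 74 gained.

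The lost transcript with the highest wild-type level was PDE_09959, named here for its level. It had 0.9, 0.59 and 0.31 FPKM in deletion replicates 1, 2 and 3, against 1103, 74.7 and 1023 FPKM in the wild-type replicates. Its log2 change was -8.12 ± 0.98 (SE, adjusted p = 0.00193, limma). The rule for lost transcripts keeps the groups apart by definition. Wild-type replicate 2 was far below the other wild-type libraries, and the recovery mean was 90.3 ± 33.2 FPKM (SD, n = 3). PDE_04438, the next by level, had 0.68, 0.29 and 0.34 FPKM in the deletion libraries and 62.2, 20.7 and 53.8 FPKM in the wild type. Its log2 change was -4.89 ± 0.41 (adjusted p = 3.31e-04, limma), and again wild-type replicate 2 was the lowest of its strain.

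The gained transcripts with the highest deletion level were PDE_07531 and PDE_03415. PDE_07531 had 45.5, 66.0 and 35.1 FPKM in the deletion libraries against 0.13, 0.82 and 0.45 FPKM in the wild type, which put the log2 change at 5.07 ± 0.30 (SE, adjusted p = 4.93e-05, limma). PDE_03415 had 18.6, 8.48 and 10.7 FPKM in the deletion libraries against 0.76, 0.51 and 0.39 FPKM in the wild type, which put the log2 change at 3.07 ± 0.30 (adjusted p = 6.76e-04, limma). Both stayed below 1 FPKM in every wild-type library, which the rule for gained transcripts requires. Recovery means were 0.343 ± 0.263 FPKM for PDE_07531 and 0.340 ± 0.0529 FPKM for PDE_03415.

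Rises and falls were spread unevenly over the wild-type level. In the band of 1 to 10 FPKM, 207 of 1775 genes were higher (11.7%) and 105 lower (5.92%). Between 10 and 100 FPKM, 406 of 5483 were higher (7.40%) and 347 lower (6.33%). From 100 to 1000 FPKM the order turned, with 87 of 1430 higher (6.08%) and 200 lower (14.0%), and at 1000 FPKM or above 6 of 175 were higher (3.43%) and 25 lower (14.3%). Falls therefore made up 33.7%, 46.1%, 69.7% and 80.6% of calls from the lowest of these 4 bands to the highest. Below 1 FPKM in the wild type, 54 of 109 genes were higher and 0 lower. That band is not comparable, because a gene with so low a wild-type mean passed the filter only with at least 1 deletion library at 1 FPKM or more.

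**Figure D1:**
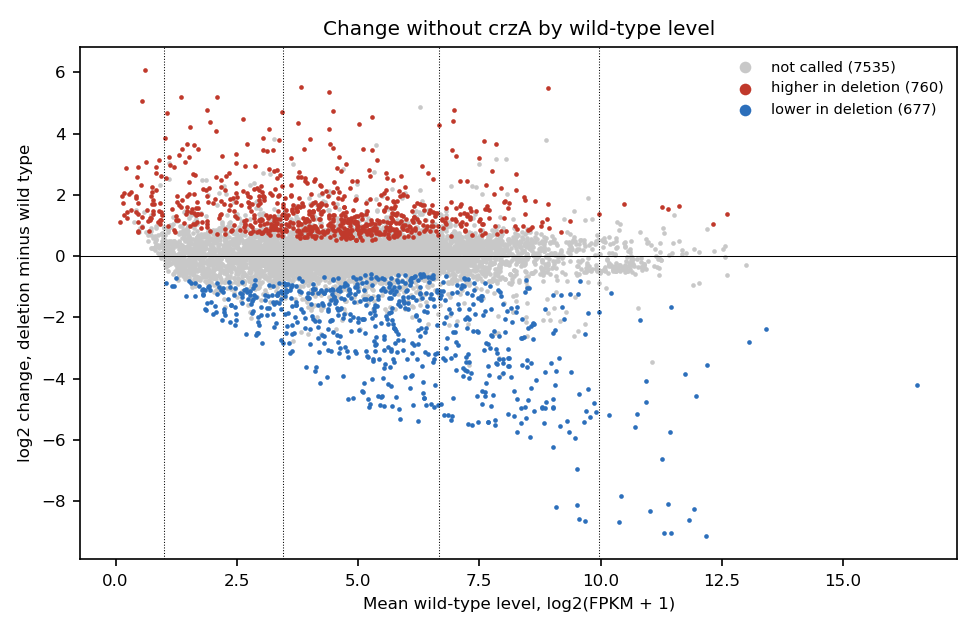
Log2 change in the deletion strain minus the wild type (vertical) against the mean wild-type level on the log2(FPKM + 1) scale (horizontal) for the 8972 tested genes, with dotted lines at 1, 10, 100 and 1000 FPKM. The 760 genes called higher (red) are densest at low and middle levels, and the steepest of the 677 genes called lower (blue) lie at high levels, down to -9.13.

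Wild-type values enter both the band and the change, so their noise moves genes of low bands towards rises and of high bands towards falls. Bands of the mean recovery level, whose libraries share nothing with the comparison, gave similar counts. In those bands falls made up 35.2%, 44.4%, 70.8% and 85.3% of calls, from 1 to 10 FPKM up to at least 1000 FPKM. In the top recovery band 5 of 178 genes were higher and 29 lower. The lean towards falls at high levels was weaker when replicate 2 of both strains was left out. Falls then made up 44.3%, 46.3%, 51.0% and 58.5% of calls in the 4 wild-type bands, with 433 genes higher and 450 lower from 100 to 1000 FPKM and 39 higher and 55 lower above. The counts of 8-fold changes kept their lean. From 100 to 1000 FPKM 9 genes rose and 104 fell by at least 8-fold, and 16 and 123 without these libraries. At 1000 FPKM or above 0 rose and 20 fell by at least 8-fold, and 0 and 22 without these libraries. On the log2(FPKM + 1) scale a gene near the bottom of the range cannot fall 8-fold, which limits falls in the lowest bands. Few transcripts reach the level that an 8-fold rise from the top band needs, which limits rises there. The lowest of the 50 most abundant transcripts of the deletion strain averaged 2120 FPKM.

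**Figure D2:**
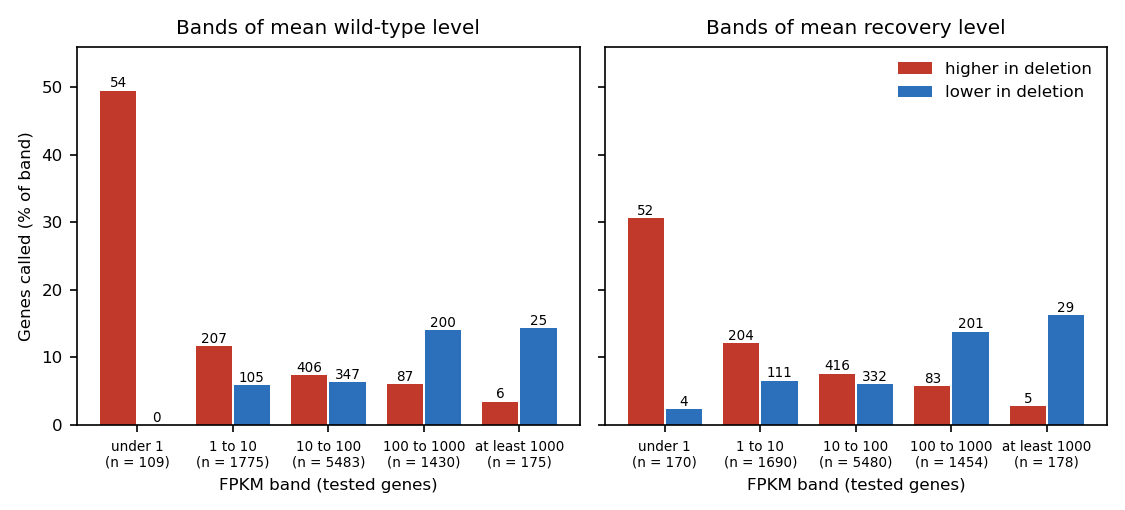
Percentage of tested genes called higher (red) and lower (blue) in the deletion strain, by band of mean wild-type FPKM (left) and of mean recovery FPKM (right), with the number of genes over each bar and the genes tested under each band. In both panels rises exceed falls at 1 to 10 FPKM (207 and 105 genes, left) and falls exceed rises at 100 to 1000 FPKM (87 and 200 genes, left).

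Falls and rises both moved genes into other level bands. Of the 25 genes lower in the band of at least 1000 FPKM, 8 averaged under 10 FPKM in the deletion strain, 7 between 10 and 100, 8 between 100 and 1000, and 2 still over 1000 FPKM. These 25 genes, PDE_09832 among them, held 1.11% ± 0.155 of summed FPKM in the deletion strain, against 16.3% ± 1.03 in wild-type libraries (SD, n = 3 each). Of the 200 genes lower in the band of 100 to 1000 FPKM, 3 averaged under 1 FPKM in the deletion strain, 37 between 1 and 10 and 140 between 10 and 100 FPKM. In the other direction, 21 of the 87 genes higher in that band exceeded 1000 FPKM in the deletion strain. Of 207 genes higher in the band of 1 to 10 FPKM, 160 reached 10 to 100 FPKM and 5 reached 100 to 1000 FPKM. Of the 50 most abundant transcripts, 33 were in the lists of both the deletion strain and the wild type (66.0% of each). The list of the recovery strain shared 37 with the wild type (74.0% of each). Of the 500 most abundant, the deletion strain shared 367 with the wild type (73.4%), and the recovery strain shared 442 (88.4%). Of the 50 most abundant transcripts of the deletion strain 10 were called higher and 1 lower, and of its 500 most abundant 87 and 8. The wild-type lists held 5 higher and 15 lower of 50, and 23 higher and 95 lower of 500. Over all tested genes 8.47% were higher and 7.55% lower. The level of a strain enters both its list and the change, which favours rises in the deletion lists and falls in the wild-type lists.

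The genes with the steepest changes were named band by band, at most 2 in each direction. In the band under 1 FPKM the steepest rise was that of PDE_01233, with 101, 80.6 and 107 FPKM in the deletion libraries against 0.08, 1.28 and 0.21 FPKM in the wild type. Its log2 change was 6.07 ± 0.31 (SE, adjusted p = 2.97e-05, limma), the largest rise of the comparison. PDE_07531, described among the gained transcripts, was second in this band.

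In the band of 1 to 10 FPKM, PDE_05901 had 107, 76.7 and 92.5 FPKM in the deletion libraries against 2.41, 1.36 and 0.92 FPKM in the wild type. PDE_01234, next in number to PDE_01233, had 164, 110 and 159 FPKM in the deletion libraries against 2.11, 5.93 and 1.81 FPKM in the wild type. Log2 changes were 5.21 ± 0.26 for PDE_05901 and 5.19 ± 0.37 for PDE_01234 (limma adjusted p = 2.54e-05 and 1.31e-04). In both genes every deletion library stood far above every wild-type library, and recovery means of 1.85 ± 1.75 and 2.44 ± 0.121 FPKM were low. The steepest falls in this band were those of PDE_01339 and PDE_01431. PDE_01339 had 0.09, 0.03 and 0.25 FPKM in the deletion libraries against 7.85, 5.51 and 7.78 FPKM in the wild type, which put the log2 change at -2.83 ± 0.22 (adjusted p = 2.00e-04, limma). PDE_01431 had 0.44, 0.8 and 0.38 FPKM in the deletion libraries against 7.84, 10.2 and 11.6 FPKM in the wild type, which put the log2 change at -2.82 ± 0.23 (adjusted p = 2.56e-04, limma). Both were below 1 FPKM in all deletion libraries.

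In the band of 10 to 100 FPKM the steepest rises were those of PDE_01199 and PDE_04228. PDE_01199 had 742, 497 and 674 FPKM in the deletion libraries against 9.47, 16.2 and 13.7 FPKM in the wild type, which put the log2 change at 5.51 ± 0.25 (SE, adjusted p = 1.85e-05, limma). PDE_04228 had 411, 1068 and 1065 FPKM in the deletion libraries against 30.2, 9.46 and 20.3 FPKM in the wild type, which put the log2 change at 5.35 ± 0.51 (adjusted p = 5.99e-04, limma). Deletion replicate 1 was far below the others of its strain in PDE_04228, and deletion replicate 2 was the lowest in PDE_01199. The uneven replicate thus differed between these genes. Among falls, PDE_05447 was listed at 0 in deletion replicate 1 and had 1.15 and 1.19 FPKM in deletion replicates 2 and 3, against 88.5, 40.2 and 93.8 FPKM in the wild type. Its log2 change was -5.39 ± 0.44 (adjusted p = 2.76e-04, limma), and its recovery mean was 24.2 ± 15.6 FPKM. PDE_09474 had 0.13, 0.26 and 1.08 FPKM in the deletion libraries against 56.7, 48.5 and 65.4 FPKM in the wild type, which put the log2 change at -5.32 ± 0.28 (adjusted p = 2.97e-05, limma). Its wild-type libraries were close together, and its recovery mean was 90.0 ± 24.7 FPKM.

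In the band of 100 to 1000 FPKM both named rises had an uneven wild type. PDE_01194 had 8808, 9491 and 11121 FPKM in the deletion libraries against 103, 1277 and 74.4 FPKM in the wild type. Its log2 change of 5.50 ± 1.00 (SE, limma adjusted p = 0.0115) was no longer past the threshold without deletion replicate 3, at 5.41 (limma adjusted p = 0.0590). PDE_07868 had 2424, 1496 and 2427 FPKM in the deletion libraries against 36.3, 302 and 36.4 FPKM in the wild type, which put the log2 change at 4.78 ± 0.80 (adjusted p = 0.00831, limma). Wild-type replicate 2 was the high library in both genes. The falls were steeper and their wild types were closer. PDE_09232 had 1.24, 0.7 and 1.09 FPKM in the deletion libraries against 931, 550 and 985 FPKM in the wild type, which put the log2 change at -8.64 ± 0.26 (adjusted p = 5.12e-06, limma). PDE_09237 had 0.93, 0.76 and 1.06 FPKM in the deletion libraries against 885, 485 and 892 FPKM in the wild type, which put the log2 change at -8.57 ± 0.26 (adjusted p = 5.12e-06, limma).

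At 1000 FPKM or above rises were small. In the unweighted fit of log2(FPKM + 1) to the 6 libraries, falls there were the steepest of the comparison. PDE_01918 had 4454, 3372 and 5608 FPKM in the deletion libraries against 954, 2162 and 1144 FPKM in the wild type, which put the log2 change at 1.72 ± 0.37 (SE, adjusted p = 0.0225, limma). PDE_08706 had 7414, 8004 and 13517 FPKM in the deletion libraries against 3210, 4119 and 2040 FPKM in the wild type, which put the log2 change at 1.63 ± 0.37 (adjusted p = 0.0268, limma). Neither call held when deletion replicate 1, deletion replicate 3, wild-type replicate 1 or wild-type replicate 3 was left out. In those fits the log2 changes were 1.71, 1.54, 1.48 and 1.61 for PDE_01918 (limma adjusted p from 0.0772 to 0.0999). For PDE_08706 they were 1.79, 1.36, 1.68 and 1.35 (limma adjusted p from 0.0568 to 0.110). With a block for replicate number, limma gave an adjusted p of 0.0508 for PDE_01918 and 0.0607 for PDE_08706. PDE_09235 had 7.87, 6.91 and 6.82 FPKM in the deletion libraries against 4667, 3865 and 5331 FPKM in the wild type, which put the log2 change at -9.13 ± 0.19 (adjusted p = 3.23e-06, limma). PDE_09234 had 3.92, 3.45 and 5.72 FPKM in the deletion libraries against 3038, 2205 and 3192 FPKM in the wild type, which put the log2 change at -9.04 ± 0.24 (adjusted p = 4.12e-06, limma). The 4 steepest named falls, in this band and the one below it, had locus numbers within PDE_09232 to PDE_09237. That was not so under all settings. Without replicate 2 of both strains PDE_09959 was the steepest named fall, at -9.40 against -9.23 for PDE_09235, and with array weights at -9.35 against -9.32. With 0.1 added to each FPKM in place of 1, PDE_09232 (-9.52), PDE_09237 (-9.49) and PDE_09959 (-9.38) of the band below were the steepest. PDE_09234 and PDE_09235 then stood at -9.31 and -9.30.

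**Figure D3:**
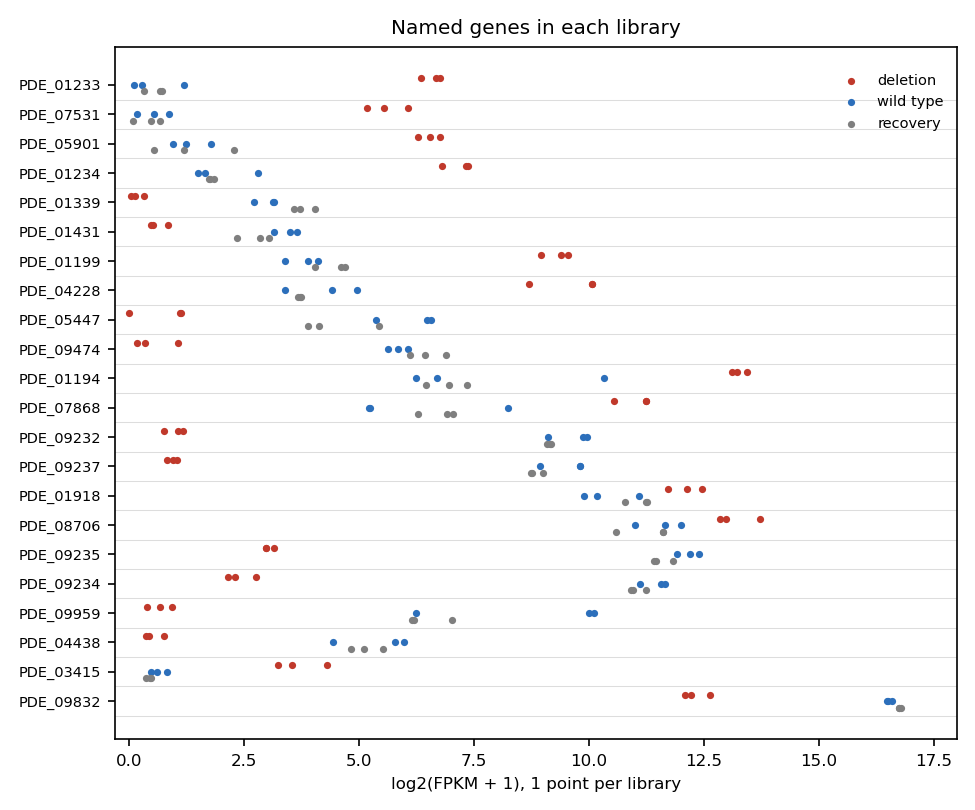
Level of each of the 22 genes named by level or by size of change, on the log2(FPKM + 1) scale, with 1 point per library for the deletion strain (red), the wild type (blue) and the recovery strain (grey). Deletion points lie apart from wild-type points in every row, which the way of naming fixed in advance for all but PDE_09832. In PDE_01194 (1277 FPKM) and PDE_09959 (74.7 FPKM) 1 wild-type library stands apart from the other 2.

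Called genes were not evenly placed along the locus numbers. The file gives no coordinates, so whether consecutive numbers are neighbours on a chromosome is not given in the sources used here. Of the genes called lower that have a tested gene after them, 207 of 676 (30.6%) were followed by another called lower, where 7.55% of all tested genes were called lower. Of the genes called higher, 166 of 760 (21.8%) were followed by another called higher, where 8.47% of all were. An opposite call followed in 4.73% and 4.74%. The share of same-sign calls fell with distance, to 15.3% for lower and 8.84% for higher genes at 5 loci away, and to 9.95% and 8.84% at 20 loci. With the longest runs left out, those of 6 or more genes, the next-gene shares were 23.1% for lower genes (6.80% of all) and 19.8% for higher genes (8.30% of all). Without replicate 2 of both strains more genes were called and the contrast was smaller, at 36.0% against 23.1% for lower and 35.2% against 26.7% for higher genes. Reads of overlapping genes could be counted for both, and whether the authors' counting used strand is not given in the sources used here. These shares are a description with no test.

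Bins of 100 locus numbers showed where calls gathered. In the 100 bins with at least 50 tested genes, the share of genes called lower ranged from 0% to 25.3% with a median of 6.63%, and the share called higher from 1.11% to 27.2% with a median of 8.20%. The bin from PDE_09201 had the highest share of lower genes, 23 of 91, followed by the bins from PDE_00001, with 20 of 93 (21.5%), and from PDE_01001, with 18 of 93 (19.4%). The bin from PDE_01201 had the highest share of higher genes, 22 of 81, with 2 lower, followed by the bin from PDE_03401, with 19 of 84 (22.6%). The opposite call was also frequent in some of them, with 11 higher genes in the bin from PDE_00001 (11.8%) and 10 lower genes in the bin from PDE_03401 (11.9%). Those from PDE_09201 and PDE_01001 had 7 and 4 higher genes. Rises outnumbered falls in 55 bins and falls outnumbered rises in 37. At the very end of the numbering, from PDE_10001, all 13 tested genes were called, 2 higher and 11 lower.

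**Figure D4:**
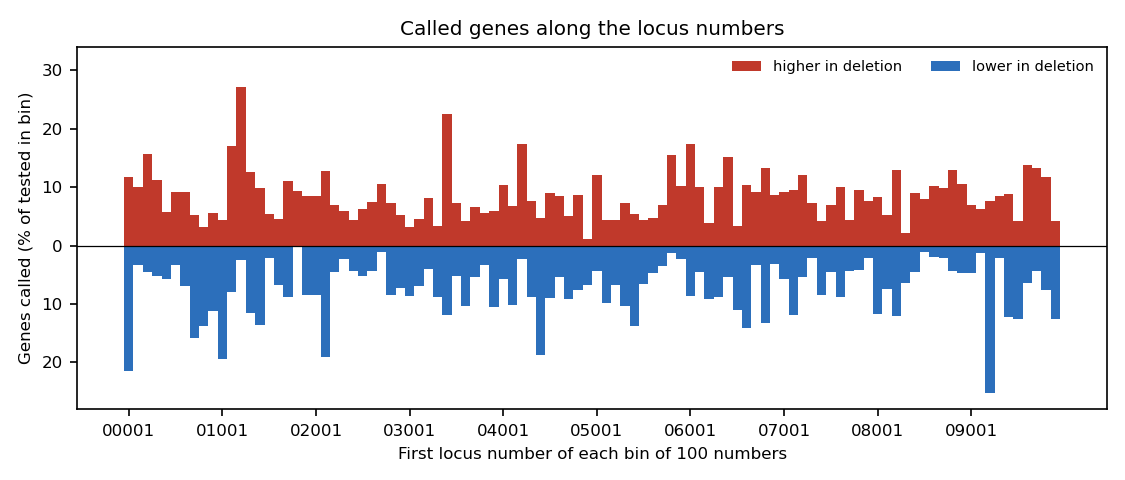
Percentage of tested genes called higher (red, upwards) and lower (blue, downwards) in the deletion strain for each bin of 100 locus numbers with at least 50 tested genes, in number order. Most bins lie near the medians of 8.20% and 6.63%, and single bins stand out, such as those from PDE_01201 (27.2% higher) and PDE_09201 (25.3% lower).

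Runs were counted as tested genes called with 1 sign that follow each other in number order. Genes called alone were the larger share, 489 of 760 higher and 373 of 677 lower. Runs of at least 4 genes numbered 13 among rises, with 68 genes (8.95% of those higher), and 20 among falls, with 136 genes (20.1% of those lower). Runs of at least 6 numbered 3 among rises and 5 among falls, and the longest had 10 and 23 genes. Where only consecutive numbers were joined, 11 and 17 runs of at least 4 were left. Runs of at least 6 then numbered 1 among rises and 5 among falls, and the longest had 7 and 23 genes. Large falls were concentrated there, since 89 of the 203 genes lower by at least 8-fold lay in runs of at least 4 and 66 in runs of at least 6. Of 58 genes higher by at least 8-fold, 17 lay in runs of at least 4 and 7 in runs of at least 6. Of the 60 lost transcripts 19 lay in runs of at least 4, and of the 30 gained ones 7 did. The runs were found from the calls, so their values below are a description.

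The longest run held 23 genes with unbroken numbers, PDE_00789 to PDE_00811, all called lower. Their means ranged from 2.29 to 39.8 FPKM in the deletion strain and from 38.8 to 1669 FPKM in the wild type. The median log2 change was -4.84, and 22 of the 23 were lower by at least 8-fold. PDE_00794 changed most, with 8.33, 11.2 and 13.0 FPKM in the deletion libraries against 646, 709 and 787 FPKM in the wild type. The nearest gene on either side was not called. PDE_00788 had 4.01 ± 0.0896 FPKM in the deletion strain against 2.30 ± 0.812 FPKM in wild-type libraries (SD, n = 3 each, limma adjusted p = 0.131), and PDE_00812 had 7.51 ± 3.75 FPKM in the deletion strain and 13.7 ± 3.94 FPKM in wild-type libraries (limma adjusted p = 0.159). Further out, PDE_00786, 3 numbers before the run, was called lower, with 8.91, 4.87 and 7.04 FPKM in the deletion libraries against 28.9, 28.4 and 25.6 FPKM in the wild type.

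The run from PDE_09227 to PDE_09245 held 19 genes and, in the unweighted fit to the 6 libraries, the steepest falls of the comparison. Their means ranged from 0.840 to 143 FPKM in the deletion strain and from 10.7 to 4621 FPKM in the wild type, with a median log2 change of -8.19. PDE_09244, the highest of them in the deletion strain, had 125, 114 and 189 FPKM in the deletion libraries against 846, 729 and 868 FPKM in the wild type. It lies next to the end of the run and fell less, by 2.54 ± 0.24 on the log2 scale (SE, adjusted p = 5.47e-04, limma). After 2 genes that were not called, the next 4, PDE_09248 to PDE_09251, were all called higher, with log2 changes of 0.88 to 1.37. Among runs of at least 4 genes, such a turn of sign was found at 2 other places. PDE_06879 to PDE_06882 were lower, with log2 changes of -4.85 to -2.58, and PDE_06884 to PDE_06888 were higher, at 1.61 to 4.47, with 1 gene between them that was not called. PDE_07195 to PDE_07199 held 4 lower genes, at -2.89 to -1.31, and PDE_07204 to PDE_07208 were higher, at 0.93 to 3.51. Of the 4 genes between these runs, 3 were tested and 1, PDE_07202, was called lower.

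A further 13 tested genes between PDE_01063 and PDE_01076 were lower, with means of 0 (listed at 0 in every library) to 40.5 FPKM in the deletion strain and 2.49 to 543 FPKM in the wild type. PDE_01072, between them, was not tested, being listed at 0 in 5 of the 6 libraries and at 0.03 FPKM in wild-type replicate 3. PDE_01069 changed most, with 3.24, 5.81 and 7.34 FPKM in the deletion libraries against 355, 350 and 406 FPKM in the wild type. Wild-type replicate 2 was close to the other wild-type libraries here. It was not so in PDE_01080, the next tested gene after the run, which was not called. That gene had 995, 460 and 1292 FPKM in the deletion libraries and 190, 2410 and 103 FPKM in the wild type.

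Near the end of the numbering, PDE_09999 to PDE_10010 held 12 genes, all lower by at least 8-fold. Their means were 0.807 to 16.5 FPKM in the deletion strain and 41.5 to 439 FPKM in the wild type, with a median log2 change of -4.78. PDE_10005 changed most, with 2.65, 5.29 and 7.02 FPKM in the deletion libraries against 296, 254 and 378 FPKM in the wild type. PDE_10011, next in number, was called higher, with 3.98 ± 0.900 FPKM in the deletion strain against 0.853 ± 0.733 FPKM in wild-type libraries (SD, n = 3 each, limma adjusted p = 0.0215). PDE_10012, after it, was also called higher, with 59.6, 39.7 and 46.3 FPKM in the deletion libraries against 5.19, 14.8 and 9.25 FPKM in the wild type. PDE_03620 to PDE_03625, a run of 6, fell with a median log2 change of -4.30. In PDE_03620 the deletion libraries had 0.54, 0.48 and 1.05 FPKM and the wild type had 63.4, 28.1 and 78.7 FPKM.

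Rises formed shorter and shallower runs. The longest joined 10 tested genes between PDE_01228 and PDE_01238, with means of 11.3 to 503 FPKM in the deletion strain and 0.523 to 33.5 FPKM in the wild type. Its median log2 change was 2.98, and it held both PDE_01233 and PDE_01234. PDE_01232, the highest of them in the deletion strain, had 592, 358 and 558 FPKM in the deletion libraries against 9.5, 41.8 and 12.9 FPKM in the wild type. PDE_01235, inside the run, was below the filter. A run of 7 between PDE_06088 and PDE_06098 had a median log2 change of 1.39, and in its steepest member, PDE_06096, the deletion libraries had 358, 243 and 238 FPKM and the wild type 14.2, 12.1 and 11.3 FPKM. A run of 6 between PDE_04269 and PDE_04277 had a median of 1.90. The runs from PDE_06088 and PDE_04269 skip numbers, with spans of 11 and 9 numbers. Neither kept 6 genes when only consecutive numbers were joined. The medians of both runs depended on the pseudocount. They were 2.85 for the run from PDE_06088 and 3.79 for that from PDE_04269 with a pseudocount of 0.1, and 0.93 and 0.77 with a pseudocount of 5. Among the runs of falls, the median of that from PDE_01063 was -5.57 with 0.1 and -3.51 with 5. For the run from PDE_03620 it was -5.09 and -2.85, and for the run from PDE_09227 -8.37 and -7.06.

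The 4 runs of falls with unbroken numbers, PDE_00789 to PDE_00811, PDE_03620 to PDE_03625, PDE_09227 to PDE_09245 and PDE_09999 to PDE_10010, had every member called lower under each of the 21 other settings. The run from PDE_01063 to PDE_01076 had at least 11 of 13 called. The run from PDE_01228 to PDE_01238 had at least 9 of 10 called, and the other 2 runs of rises had at least 3 called, the fewest in a test against a 1.5-fold change. In none of these settings was a member called in the opposite direction.

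**Figure D5:**
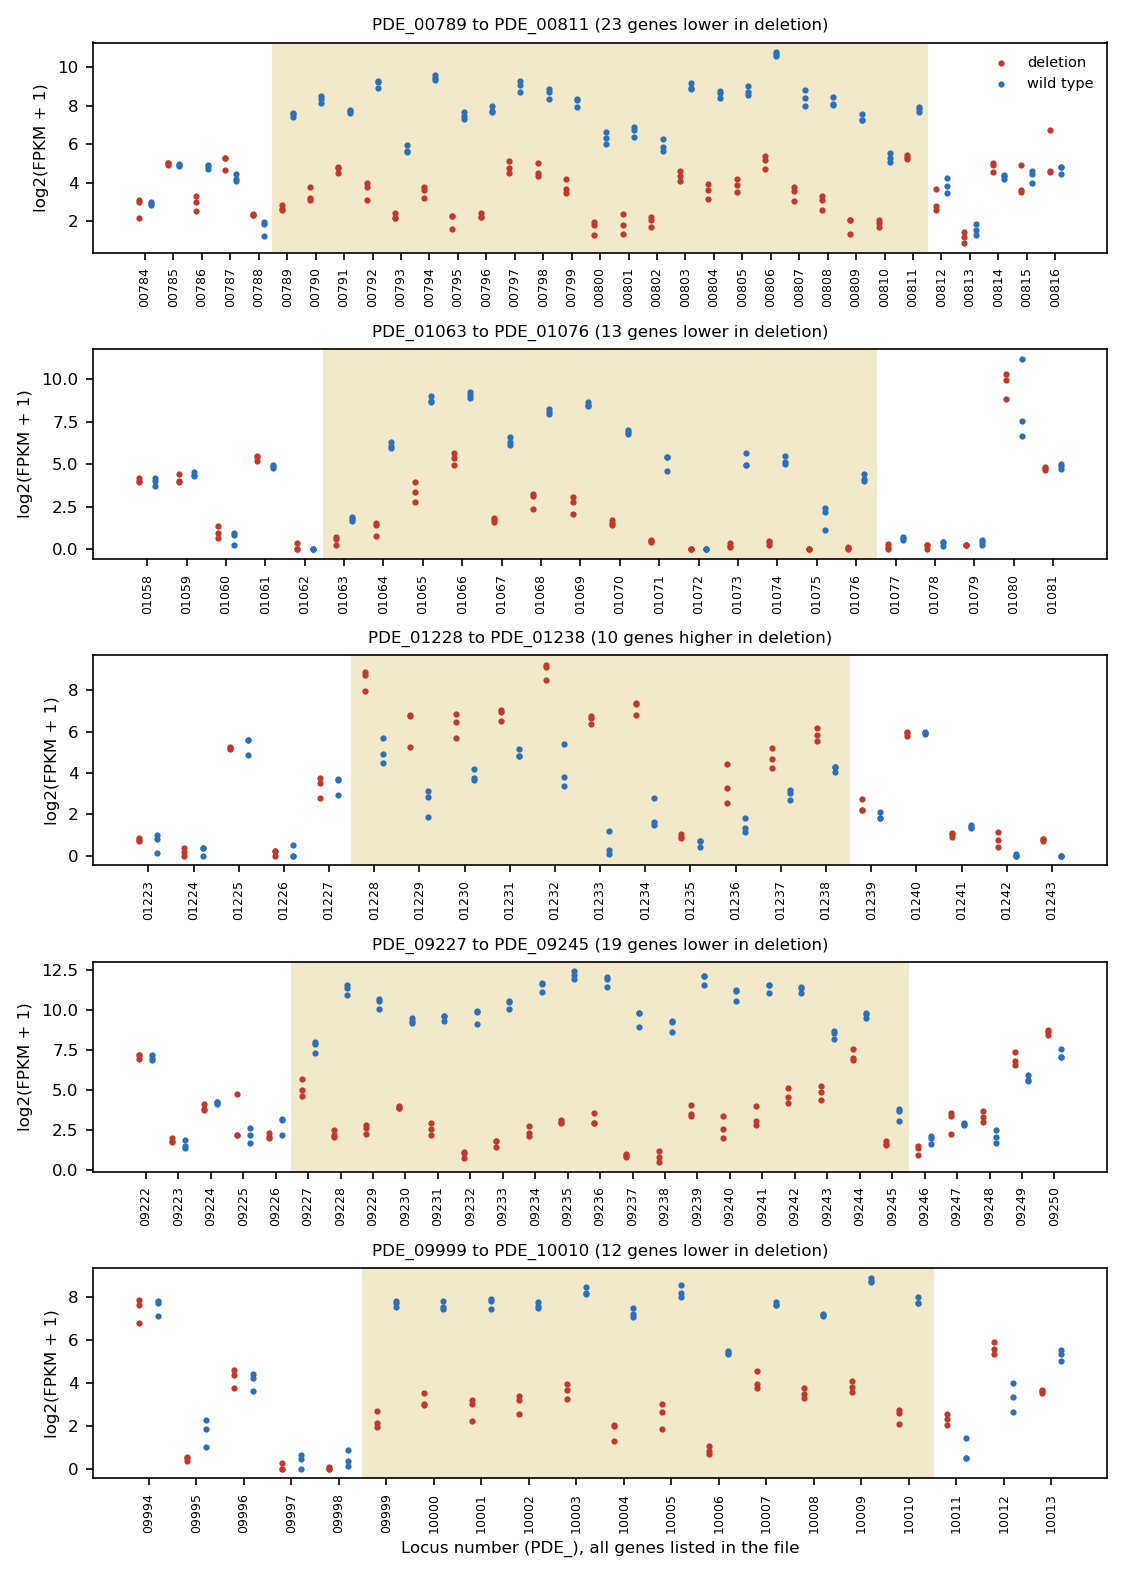
Level on the log2(FPKM + 1) scale of each gene in the 5 runs of at least 10 genes (shaded) and of up to 5 genes on either side, in the order of the file, with 1 point per library for the deletion strain (red) and the wild type (blue). In the 4 runs of falls the blue points lie above the red ones at every tested shaded gene, and in PDE_01228 to PDE_01238 the red points lie above the blue ones.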

How the data were processed

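Messenger RNA was measured in 3 libraries per strain. Per the file headers, the authors deposited FPKM, with 2 decimals. Per the labels' protocols, libraries were short tags cut with NlaIII and MmeI, which need no division by gene length. The sources used here give no aligner, counting tool, genome build or annotation. Levels of different genes may therefore not compare as molecules. Division by gene length affects unscaled changes of 1 gene between libraries only through pseudocount and filter. Scaling of the libraries moves such changes too.

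The number of reads is unknown. Low values (0.2 to 2 FPKM) of each library, divided by those of wild-type replicate 1, piled up most at a ratio within 3.74% of 1 in a search over 4-fold either way, so the value of a read, and with it the depth, was alike. No counting interval was computed. Wild-type replicates 1 and 3, the closest pair, had 3 identical values above 10 FPKM. Over 128 genes at 1000 FPKM or more in both strains, their log2 values differed with an SD of 0.202. They were counted as separate.

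Values were taken as log2(FPKM + 1), unscaled. The 6 libraries were fitted with limma 3.58.1 (R 4.3.3), 1 mean per strain, trend and robust options, two-sided, with Benjamini-Hochberg adjustment over 8972 genes. Descriptions used Python 3.11.15, pandas 2.3.3 and numpy 2.4.6. The fit was tested on simulated data with independent noise for each gene and library, and the outcome is not reported here. Such data hold no shift shared by many genes of 1 library, so they cannot show how replicate 2 affects the calls. Named genes are the 2 steepest called rises and falls in each wild-type band whose groups do not overlap. Genes named as the most abundant, as the highest among lost or gained transcripts, or in and beside runs, were chosen after their values were seen. Comparison, tests, bands and naming rule were chosen with earlier results of these data known. Alternatives covered pseudocounts, filters, scalings, weights, thresholds, a block and left-out libraries.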

Additional observations from a re-analysis of the deposited data

How the results depend on the processing

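Counts are given as genes higher, genes lower, 8-fold rises, lost and gained transcripts where they moved by more than 1.5 times from 760, 677, 58, 60 and 30. An adjusted p under 0.01 gave 281 higher, 400 lower, 38 lost and 12 gained, and a test against a 1.5-fold change gave 223, 375, 36 and 10; both are stricter by construction. Array weights gave 2580 higher, 2424 lower and 105 rises by 8-fold, and the fit to 9 libraries gave 1363 higher; the cause was not tested. Leaving out replicate 2 of both strains, which lowers the spread by construction, gave 2399 higher, 2072 lower, 105 rises by 8-fold, 93 lost and 74 gained. Pseudocounts of 0.1 and 5 gave 88 and 38 rises by 8-fold, and 5 gave 19 gained. A filter at 5 FPKM, which leaves out most such genes, gave 22 lost and 3 gained. Leaving out 1 library gave 300 to 1502 higher, 405 to 1081 lower, 49 to 82 rises by 8-fold, 184 to 243 falls by 8-fold, 41 to 70 lost and 15 to 58 gained. Falls by 8-fold stayed within 1.5 times of 203 in all 21 settings.

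The split of calls moved too. Rises were 52.9% of calls, 59.0% after rescaling to TPM and 48.4% without the most abundant gene and 47.9% with the replicate block, where falls were the more frequent. Rises were 41.3% at an adjusted p under 0.01 and 37.3% in the test against a 1.5-fold change. After rescaling to TPM the median log2 change of all genes was 0.13, against 0.06 in the main fit. It was 0.00 without the most abundant gene and 0.00 with array weights.

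Pairing by replicate number was not adopted. Deviations from the strain means correlated by 0.226, 0.127 and 0.00796 between libraries of equal number, of which 2 exceed 0.1, and 4 of 6 libraries were most like the library of their own number. With the replicate block 640 genes were higher, 696 lower, 57 lost and 24 gained.

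Of 461 values of the 22 genes named by level or size of change under other settings, 445 kept direction and side of the threshold, 16 were no longer past it and 0 reversed. These 16 belonged to PDE_01194, PDE_01918 and PDE_08706. Limits set by absolute depth were not estimated.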
